A study of Mus musculus with 14 samples.

Results

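The cytoplasmic ribosomal protein genes of the mouse, with Rps4l and the other paralog forms, were examined in bulk RNA-Seq of the esophagus. Members were the symbols made of Rpl or Rps and a number, with an optional a, x or l and a final digit, together with Rplp0, Rplp1, Rplp2 and Rpsa. Symbols containing "-ps" were left out. The rule found 89 of 55291 symbols, of which 83 are annotated as protein-coding in GENCODE M21, 5 as processed pseudogenes (Rpl32l, Rpl6l, Rps12l1, Rps3a2 and Rps3a3) and 1, Rps4l, as a transcribed processed pseudogene. A name ending in l or l1 is carried by 10 members (Rpl10l, Rpl22l1, Rpl32l, Rpl39l, Rpl3l, Rpl6l, Rpl7l1, Rps12l1, Rps27l and Rps4l). The 77 that remain after these 10 and after Rps3a2 and Rps3a3 are called core genes here. RNA of C57BL/6 mice, enriched for poly(A) tails, was sequenced from epithelium, left after the muscle layer had been peeled away, and from the peeled tissue, which the labels call stroma. Aged mice (at least 18 months) gave 5 epithelial samples (O1, O2, O3, OF5, OM8) and 3 stromal samples (O1, O2, O3). Young mice (at most 4 months) gave 4 epithelial samples (Y1, Y3, YF5, YM4) and 2 stromal samples (Y1, Y3). The sources give no transgene and no treatment for any of these mice, and the layers of O1, O2, O3, Y1 and Y3 come from the same animals.

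A ribosome is built of a large and a small subunit, whose proteins are named Rpl and Rps, around ribosomal RNA. These genes are read at high levels in most tissues, and their mRNAs typically begin with a C followed by a run of pyrimidines, through which their translation follows growth signals. Because the mRNAs are abundant, the mouse genome holds many processed copies of them, reverse-transcribed without introns. A few paralogs have an expression of their own. Rpl3l is known as the form of Rpl3 used in striated muscle, and Rps4l is a copy of the X-linked Rps4x on chromosome 6.

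The shared start of the Rps4l and Rps4x transcripts is shown because it is the longest exact run between them. Capitals mark the 38 bases in common, which include the start codon, and the sequences come from GENCODE M21 (GRCm38).
Rps4l, chr6:148354696-148354755, plus strand: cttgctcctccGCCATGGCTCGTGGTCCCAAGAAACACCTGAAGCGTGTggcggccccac
Rps4x, chrX:102189298-102189314 and chrX:102188329-102188371, minus strand, joined over an intron: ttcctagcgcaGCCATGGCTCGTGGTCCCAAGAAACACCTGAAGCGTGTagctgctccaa
Over their aligned length, the transcripts of Rps4l (943 bases, a single exon) and Rps4x (975 bases, 7 exons) were 79.7% identical. From that start codon, Rps4l holds an open frame of 789 bases up to and including the first stop codon, and Rps4x one of 792 bases. Of the 31-base words of Rps4l, 25.96% occurred in other annotated genes, against 77.9% of those of Rps4x. Other members count among these genes, so the run shown above enters both values.

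Rpl3 is shown beside a pseudogene and its paralog. The same 60 bases are given for Rpl3, for its pseudogene Rpl3-ps1 and for Rpl3l, with capitals at each base that differs from Rpl3.
Rpl3, chr15:80082401-80082460, minus strand: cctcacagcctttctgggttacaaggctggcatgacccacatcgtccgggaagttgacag
Rpl3-ps1, chrX:13202697-13202756, plus strand: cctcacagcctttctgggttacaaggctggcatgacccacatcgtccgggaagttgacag
Rpl3l, chr17:24728439-24728498, plus strand: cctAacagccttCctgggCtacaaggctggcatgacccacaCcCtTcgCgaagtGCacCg
Rpl3-ps1 differed from Rpl3 at 0 of these 60 bases and Rpl3l at 10. Rpl3l shared no run of 31 bases with another annotated gene, member or not, whereas 87.6% of the 31-base words of Rpl3 occurred in such genes.

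RefSeq gave promoters (GRCm38.p6) for 64 of the 89 members. A C followed by at least 4 pyrimidines stood exactly at an annotated start in 14 of these 64 genes (21.9%), and in 813 of 27025 genes in the whole table (3.01%). The letters CCGGAAG, searched on both strands of the 300 bases around the start, were found in 26 of the 64 members (40.6%) and in 2683 of all genes (9.93%). These are the core letters bound by ETS factors, and a match is a description of the sequence only. The windows of 4 members named below are shown with 10 bases before and 20 from the annotated start, with the pyrimidine run in capitals.
Rps10, chr17:27635225-27635254, minus strand: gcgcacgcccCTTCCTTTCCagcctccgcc
Rps27, chr3:90213629-90213658, minus strand: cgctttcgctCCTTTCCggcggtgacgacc
Rpl28, chr7:4792955-4792984, plus strand: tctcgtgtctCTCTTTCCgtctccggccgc
Rplp2, chr7:141447641-141447670, plus strand: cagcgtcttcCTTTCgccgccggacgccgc

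The epithelial libraries OF5, OM8, YF5 and YM4 stood apart from the other 10 samples. Their codes have another form, they have no stroma, and they held 1042394 to 1433857 protein-coding counts, against 7971284 to 11067320 in the other 5 epithelial and 6665526 to 8109419 in the 5 stromal libraries. A single ribosomal RNA row took 63.9% to 73.9% of all their counts, against 10.4% to 23.3% in the other epithelial libraries and 1.47% to 1.88% in stroma. The labelled layers carried their own markers. All 5 basal and all 5 differentiated keratinocyte genes were DEGs higher in epithelium, and all 12 skeletal muscle genes were DEGs lower. The summed skeletal muscle list ran from 169 to 1855 normalized counts in epithelium and from 42353 to 76538 in stroma. Normalized counts are CPM on the TMM-adjusted library size over all 14 samples, and 3 counts correspond to 0.707 to 1.25 of them in the 4 shallow libraries and to 0.0872 to 0.175 in the other 10. In bulk samples, fewer cells of a type and less RNA per cell cannot be told apart.

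Ribosomal protein genes took a larger share of the protein-coding counts in O1, O2, O3, Y1 and Y3 epithelium than in stroma, and the shallow libraries came close to stroma. Relative to protein-coding counts, the 89 genes held 1.301% in O1, 1.58% in O2, 1.52% in O3, 1.40% in Y1 and 1.44% in Y3 epithelium. In the shallow libraries the share was 0.961% in OF5, 0.739% in OM8, 0.870% in YF5 and 0.859% in YM4. Stroma held 0.586% in O1, 0.730% in O2, 0.815% in O3, 0.661% in Y1 and 0.663% in Y3. The epithelium of each of the 5 mice with both layers was above every stromal sample, and OM8 was below O3 stroma. Between the ages the shares overlapped in epithelium and, with 0.586% to 0.815% around the young pair, in stroma. The ratio of the median share of epithelium to that of stroma was 1.96. Mitochondrially encoded transcripts made up 1.53% to 6.24% of all counts in epithelium and 15.5% to 27.9% in stroma, and with these and the skeletal muscle list taken out of the denominator the ratio was 1.41. The shares then ran from 0.764% to 1.59% in epithelium and from 0.837% to 1.01% in stroma. As a share of all counts, the ribosomal RNA row included, the members held 0.628% to 0.857% in the other 5 epithelial libraries, 0.0966% to 0.126% in the 4 shallow ones and 0.295% to 0.422% in stroma. On that scale every shallow library lay below every stromal sample.

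**Figure D1:**
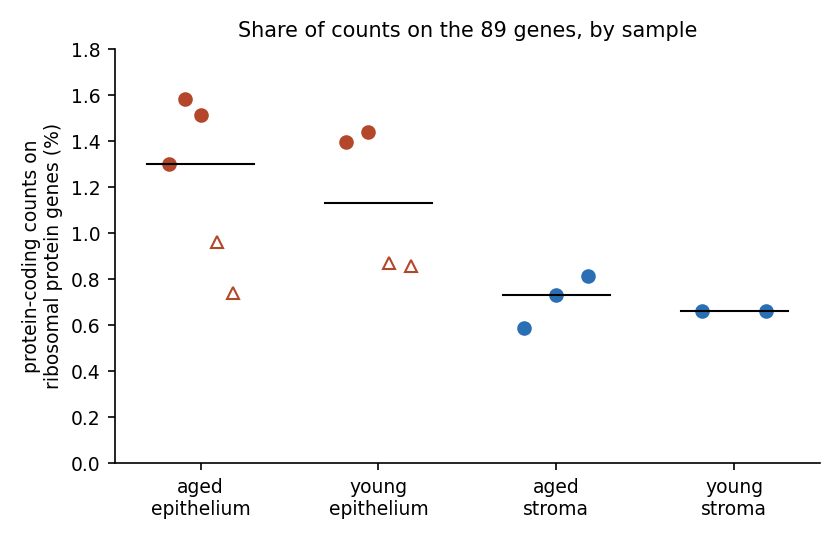
Percentage of protein-coding counts on the 89 ribosomal protein genes in each sample, by group, with filled circles for mice with numbered codes, open triangles for OF5, OM8, YF5 and YM4, and lines at the group medians. The filled epithelial points lie between 1.301% and 1.58%, and the open triangles between 0.739% and 0.961%, next to stroma at 0.586% to 0.815%.

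Comparing epithelium with stroma asks how the layers of the esophagus differ, and the ribosomal protein genes differed almost as a block. Of the 89 members, 86 passed the filter on low counts, and 74 of these were DEGs higher in epithelium (edgeR's quasi-likelihood test, adjusted p under 0.05, with SE for standard errors on the log2 scale), against 26.1% of all 16791 genes tested. One member, Rpl3l, was a DEG lower in epithelium, against 30.1% of all genes. The remaining 11 were not called. The median log2 fold change of the 86 members was 1.03, and that of all genes tested was -0.05. Of the core genes, 42 of 46 large subunit genes and 25 of 31 small subunit genes were DEGs higher in epithelium, and the median log2 fold changes were 1.09 and 0.92. Within single mice, the median log2 difference between the layers was 1.13 in O1, 1.16 in O2, 1.25 in O3, 1.105 in Y1 and 1.01 in Y3, and between 80 and 85 of the 86 members were higher in the epithelium of the mouse. Without the 4 shallow libraries, the median log2 fold change was 1.22 for the members and -0.02 for all 16713 genes tested. Complete separation was less frequent: 26 members had every epithelial sample above every stromal sample, a pattern found in 14.4% of all genes. The summed proliferation list (Mki67, Top2a, Ccnb1, Cdk1 and Pcna) also ran higher in epithelium, at 79.6 to 256 normalized counts against 9.55 to 28.9 in stroma. Its part in the difference of the members was not tested.

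**Figure D2:**
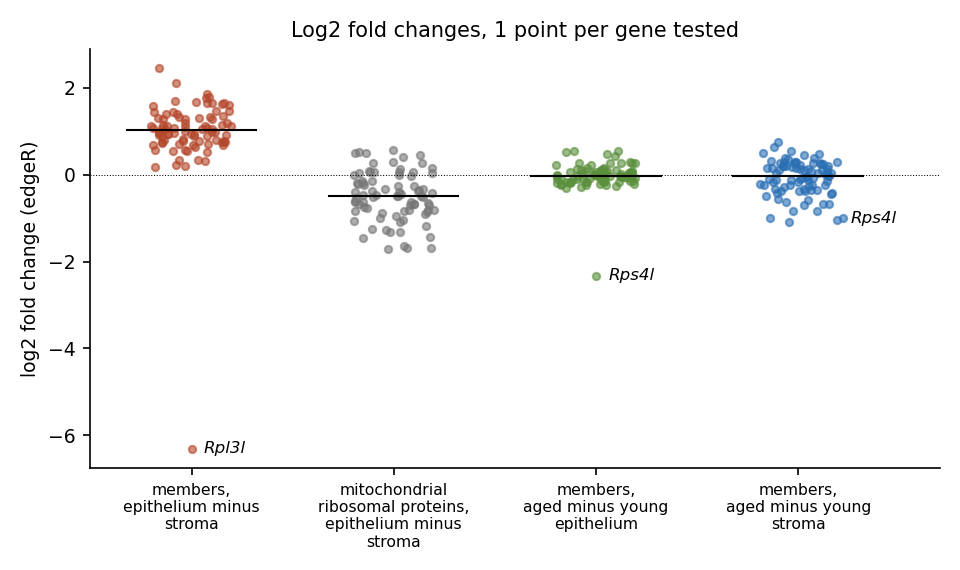
Log2 fold change (edgeR) of each gene tested, 1 point per gene, for members and mitochondrial ribosomal protein genes between the layers and for members between the ages, with lines at the medians. Between the layers the members centre on 1.03, with Rpl3l far below the rest, and the mitochondrial ribosomal protein genes on -0.49. Between the ages the members centre on -0.03 in both layers, with Rps4l far from the rest in epithelium. In stroma Rps4l (-1.01) lies near Rpl22l1 (-1.10) and Rpl28 (-1.04).

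Among the members that rose, Rpl13a, a large subunit protein also known as a regulator of translation in inflammation, had the largest fold change. It ran from 6.60 through a median of 10.04 to 11.3 normalized counts in the 9 epithelial samples and stood at 1.87, 1.40, 1.45, 2.06 and 2.01 in O1, O2, O3, Y1 and Y3 stroma. No epithelial sample reached down to stroma, and the log2 fold change was 2.45 (SE 0.23, edgeR adjusted p = 1.44e-08). Rpl12, a protein of the ribosomal stalk base, ran from 6.41 through 8.49 to 15.2 normalized counts in epithelium and from 1.22 to 2.92 in stroma, which gives a log2 fold change of 2.11 (SE 0.27, edgeR adjusted p = 1.60e-06). Rpl10a, the protein of the mobile L1 stalk, ran from 24.6 through 27.1 to 38.3 in epithelium and from 7.0 to 10.5 in stroma, a log2 fold change of 1.79 (SE 0.17). Both pairs of ranges were apart. Rpl13a, Rpl12 and Rpl10a held 10.97%, 3.76% and 19.2% of the counts on the gene and its processed copies. With the counts of the copies added, their log2 fold changes were 0.98, 1.17 and 1.30. The largest of the core genes was then Rpl3, at 1.93. Rps10, a small subunit protein, had the fifth largest fold change on few counts, at 0 to 4.01 normalized counts in epithelium and 0.0822 to 1.58 in stroma. Its log2 fold change was 1.77 (SE 0.70, edgeR adjusted p = 0.0361), and the call was lost without O2, O3, OM8, Y1 or Y3 in turn, where the adjusted p ran from 0.0637 to 0.139, and with upper quartile scaling (edgeR adjusted p = 0.0519).

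Rpl10 and Rps3 stood at contrasting levels on their own rows. Rpl10 held 6.30% of the counts on the gene and its processed copies, and Rps3 had no such copy. With copies added, raw counts over all samples were 47167 for Rpl10 and 53658 for Rps3. The contrast in level therefore depends on how the copies are treated. The log2 fold changes with copies added were 0.98 and 0.86. Rpl10, which joins the large subunit last, ran from 5.42 through 13.9 to 16.1 normalized counts in epithelium and from 3.74 to 6.77 in stroma, with YF5 at the bottom, inside the stromal range. Its log2 fold change was 1.11 (SE 0.26, edgeR adjusted p = 0.00109). Rps3, a small subunit protein at the mRNA entry that also takes part in DNA repair, ran from 136 through 231 to 284 normalized counts in epithelium and from 107 to 135 in stroma. Its ranges met without overlap, at 135.5 in OM8 epithelium and 135.2 in O3 stroma, and the log2 fold change was 0.82 (SE 0.19, edgeR adjusted p = 9.16e-04).

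The stalk proteins and the laminin receptor moved in the same direction, with Rplp0 near the median of the members and Rplp1, Rplp2 and Rpsa below it. Rplp0, the base of the stalk that recruits elongation factors, ran from 155 to 356 normalized counts in epithelium and from 111 to 150 in stroma, a log2 fold change of 1.07 (SE 0.21). Its partners Rplp1 and Rplp2 had log2 fold changes of 0.72 (SE 0.20) and 0.67 (SE 0.20), and OM8 lay inside the stromal range of Rplp1, at 86.5 normalized counts, and below that of Rplp2, at 37.5. Rpsa, a small subunit protein also described as a laminin receptor, had a log2 fold change of 0.77 (SE 0.19). All 4 were DEGs. The members that were not called, besides Rps4l, included Rpl15, Rpl29, Rpl36, Rps13, Rps14, Rps15, Rps24, Rps27 and Rps29, with log2 fold changes from 0.18 for Rps14 to 0.92 for Rps13.

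The genes for proteins of the mitochondrial ribosome were called in the other direction only, at a share near that of all genes. Of 84 symbols beginning with Mrpl or Mrps and a number, 82 were tested, none was a DEG higher in epithelium, against 26.1% of all genes, and 28 were DEGs lower, against 30.1% of all genes. The other 54 were not called. The list had a median log2 fold change of -0.49. Without the 5 pseudogene symbols tested among them, 25 of 77 were lower. Mrpl12, a large subunit protein of the mitochondrial ribosome, averaged 12.2 ± 4.23 (SD, n = 9) normalized counts in epithelial and 38.3 ± 8.59 (SD, n = 5) in stromal samples, with a log2 fold change of -1.63 (SE 0.25). This gene was picked from the largest differences after the values were seen. The share of mitochondrially encoded transcripts, given above, moved with these genes.

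Other genes of translation were mixed, and their counts stand beside 26.1% of all genes called higher and 30.1% called lower. Of the ribosomal proteins with other names, Fau, Rack1 and Rps27rt were DEGs higher in epithelium, at 1.14, 0.77 and 0.76 on the log2 scale. Rpl37rt was not called, and Rpl36al did not pass the filter. Of 50 genes of ribosome biogenesis, 21 were higher and 2 lower, with a median of 0.49. Nhp2, a protein of the RNAs that guide pseudouridine formation, led them with 2.80 (SE 0.30), followed by Eif6, which keeps new large subunits from joining, with 2.57 (SE 0.21). Riok2 (-0.79) and Emg1 (-0.57), both needed for small subunit maturation, were the members of that list that fell. Of 13 translation factors whose mRNAs also start with pyrimidines, 6 were higher, led by Pabpc1, which binds poly(A) tails, at 2.29 (SE 0.24). One was lower, Naca, at -1.85 (SE 0.15), a gene for a protein that binds nascent chains and, from a longer transcript, for a muscle form. Of 13 genes of the EIF2 pathway, 5 were higher and Eif2ak1, a kinase of EIF2, was lower, at -0.62 (SE 0.22).

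Among the paralogs, Rpl3l and Rpl3 divided the layers between them. Rpl3l stood at 89.1, 69.0, 72.7, 73.9 and 56.9 normalized counts in O1, O2, O3, Y1 and Y3 stroma and at 0 to 2.53 (median 0.319) in epithelium. Rpl3, which lies beside the peptidyl transferase centre, stood at 17.3, 16.3, 36.6, 16.6 and 13.4 in the same stromal samples and at 50.7 to 92.7 (median 73.8) in epithelium. The log2 fold change was -6.31 for Rpl3l (SE 0.48, edgeR adjusted p = 1.13e-08) and 1.86 for Rpl3 (SE 0.23, edgeR adjusted p = 7.43e-07). Neither gene overlapped between the layers. Per kb of exon, Rpl3l made up 79.3% to 90.9% of the pair in stroma and 0% to 6.76% in epithelium. The exon bases join all annotated transcripts, 1643 for Rpl3l and 3175 for Rpl3. The single transcripts compared have 1375 and 1351 bases, so the length used raises the share of Rpl3l. With the counts of the 7 copies of Rpl3 added to it, raw counts gave Rpl3l 35.6% to 58.1% in stroma and at most 1.01% in epithelium. The lowest stromal share was that of O3, the stromal library with the lowest summed skeletal muscle list. The highest epithelial values of Rpl3l, 2.53 in O3 and 2.50 in YF5, belonged to the epithelial libraries with the highest muscle sums, 1145 and 1855 normalized counts. What part muscle RNA had in these values was not tested. Between the ages Rpl3l had log2 fold changes of 0.05 in epithelium (SE 0.92) and 0.22 in stroma (SE 0.24).

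**Figure D3:**
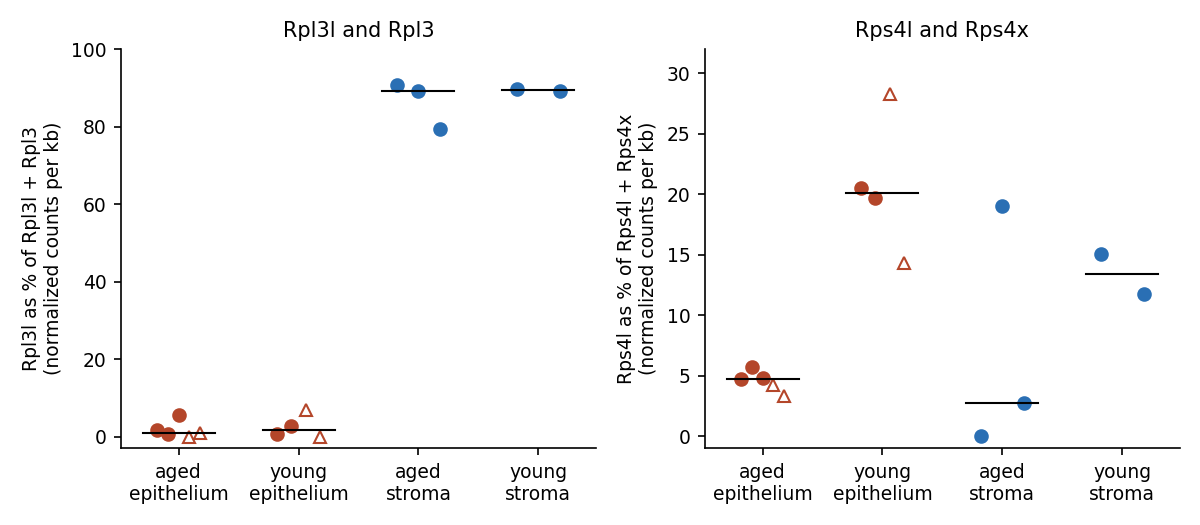
Share of the paralog in its pair, in percent of normalized counts per kb, for Rpl3l with Rpl3 and Rps4l with Rps4x in each sample (filled circles, numbered mice; open triangles, OF5, OM8, YF5 and YM4; lines, group medians). Rpl3l holds 79.3% or more of its pair in stroma and 6.76% or less in epithelium, and Rps4l holds 3.28% to 5.72% in aged and 14.3% to 28.3% in young epithelium. Lengths are exon bases over all annotated transcripts, which lengthens the parents more than the paralogs and raises these shares.

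Rps4l was the member that differed between aged and young epithelium. It stood at 1.28, 1.999, 1.53, 0.689 and 0.471 normalized counts in O1, O2, O3, OF5 and OM8, and at 8.04, 6.90, 5.42 and 3.12 in Y1, Y3, YF5 and YM4. All 4 young samples were above all 5 aged ones. As raw counts these were 44, 66, 37, 2 and 2 in aged and 227, 211, 13 and 9 in young epithelium. The log2 fold change, aged minus young with the code form of the mouse as covariate, was -2.33 (SE 0.27, edgeR adjusted p = 9.41e-04). It was 1 of 2 DEGs among 15859 genes tested, 0.0126% of them, and over 16 alternatives that gave a value the adjusted p ran from 3.43e-11 to 0.133. Within the numbered mice, the mean was 1.60 normalized counts in the 3 aged and 7.47 in the 2 young samples (log2 fold change -2.23, SE 0.22, edgeR adjusted p = 0.00903). Within OF5, OM8, YF5 and YM4 it was 0.580 on 4 counts and 4.27 on 22 counts, and Rps4l did not pass the filter there. The call was lost without Y1 (edgeR adjusted p = 0.0583) and without the covariate (edgeR adjusted p = 0.133), with log2 fold changes of -2.31 and -2.20.

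Its parent Rps4x, the gene on the X chromosome, did not pass the test. Rps4x stood at 44.8, 56.9, 52.7, 26.9 and 24.0 normalized counts in aged and 53.9, 48.7, 23.8 and 32.2 in young epithelium, in the order given for Rps4l, with overlapping groups. Its log2 fold change was -0.07 (SE 0.13, edgeR adjusted p = 0.9996). Per kb of exon, Rps4l made up 3.28% to 5.72% of the pair in aged and 14.3% to 28.3% in young epithelium, without overlap. The exon bases, joined over all annotated transcripts, are 943 for Rps4l and 1631 for Rps4x, whose single transcript compared has 975. The length used therefore raises the share of Rps4l, by the same lengths in every sample. With the copies of Rps4x counted with it, raw counts gave Rps4l 0.503% to 0.813% in aged and 1.96% to 4.59% in young samples. The sex of the mouse is given for OM8, YF5 and YM4 alone, so age and sex could not be examined together.

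**Figure D4:**
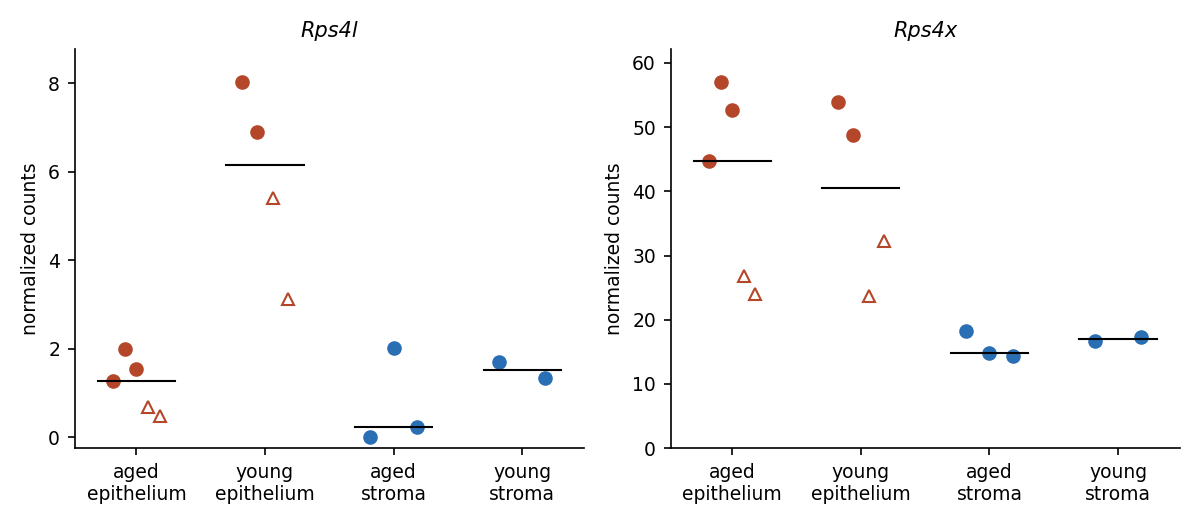
Normalized counts of Rps4l and Rps4x in each sample by group (filled circles, numbered mice; open triangles, OF5, OM8, YF5 and YM4; lines, group medians). In epithelium Rps4l is 0.471 to 1.999 in aged and 3.12 to 8.04 in young samples, while Rps4x overlaps between the ages and is lower in stroma.

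In stroma the difference of Rps4l was not resolved. It stood at 0, 2.01 and 0.230 normalized counts in O1, O2 and O3 and at 1.70 and 1.34 in Y1 and Y3, and O2 was the highest of the 5. The log2 fold change was -1.01 (SE 1.84, edgeR adjusted p = 0.99996). The difference between the age effects in the 2 layers was tested as the interaction in the 5 mice with both, without mouse as a block. It was -1.22 (SE 1.49, edgeR adjusted p = 0.99997), so an unequal effect in the layers was not shown. Between the layers, Rps4l was at 0.471 to 8.04 in epithelium and 0 to 2.01 in stroma, with a log2 fold change of 1.65 (SE 0.76, edgeR adjusted p = 0.0722). With mouse as a block in the 10 paired samples this was 2.36 (edgeR adjusted p = 0.0142), without OM8 it was 1.78 (edgeR adjusted p = 0.0498), and with no filter it was 1.86 (edgeR adjusted p = 8.95e-04).

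No other member passed the test for age. In epithelium, 0 of 86 members were DEGs higher in aged mice and 1, Rps4l, was lower, with a median log2 fold change of -0.03 against -0.00 for all genes. DESeq2 called 1 member there as well, with no adjusted p for 5 members, against 28 of all genes. At an unadjusted p under 0.05 edgeR also gave 1 member. After Rps4l the smallest unadjusted p was that of Rpl7l1, with a log2 fold change of -0.31 (SE 0.15, edgeR adjusted p = 0.9996). In stroma, 85 members were tested and 0 were called by edgeR or DESeq2. Of all 21323 genes tested there, edgeR called 0% and DESeq2 called 2 genes. With edgeR, 0 members had an unadjusted p under 0.05. The median was -0.03 for the members and -0.01 for all genes. The 3 members with the smallest p in stroma were Rpl41, a very short large subunit protein, Rpl27a and Rpl36. Their log2 fold changes were 0.44 (SE 0.24), -0.85 (SE 0.47) and 0.76 (SE 0.43). Rpl27a stood at 4.14, 5.30 and 4.40 normalized counts in aged and at 8.10 and 8.43 in young stroma, and with its copies added its log2 fold change was 0.14. In the interaction of age and layer, 0 of 86 members were called by edgeR or DESeq2. Of all 22771 genes tested for it, edgeR called 0% and DESeq2 called 62 genes. One member, Rpl27a, had an unadjusted p under 0.05. The smallest p values were those of Rpl27a, Rps20 and Rpl28, with estimates of 0.86 (SE 0.33), 0.54 (SE 0.27) and 1.29 (SE 0.68), and with copies added Rpl27a was at -0.05.

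The other paralog forms divide by whether their sequence can be told from the parent. Rpl22l1, a paralog of Rpl22 with 74.7% identity, ran from 1.04 to 2.76 normalized counts in epithelium and from 0.268 to 0.980 in stroma, with no overlap. The lowest epithelial value, in YM4, rested on 3 raw counts, as did that of YF5, and the stromal libraries held 7 to 19. Though distinct from Rpl22, Rpl22l1 held 12.73% of the counts on the gene and its processed copies, with 307 counts against 2104. Its log2 fold change was 1.58 (SE 0.48, edgeR adjusted p = 0.00899), and with mouse as a block it was 1.68 (edgeR adjusted p = 0.0721). Rpl22 itself had 94.9 ± 16.6 (SD, n = 9) and 56.6 ± 11.7 (SD, n = 5) and a log2 fold change of 0.75 (SE 0.17). Rps27l, a paralog of Rps27 known as a p53 target, ran from 3.81 to 8.33 in epithelium and from 2.67 to 6.01 in stroma, a log2 fold change of 0.75 (SE 0.26, edgeR adjusted p = 0.0171). That call was lost without O2, O3 or Y3, with adjusted p from 0.0624 to 0.0860, and with at least 10 counts in each library (edgeR adjusted p = 0.124). Rps27 had 3.57 ± 1.48 (SD, n = 9) and 2.19 ± 0.842 (SD, n = 5), with a log2 fold change of 0.77 (SE 0.36, edgeR adjusted p = 0.0757). It became a DEG in 8 alternatives: without YF5 (edgeR adjusted p = 0.0395), without YM4 (edgeR adjusted p = 0.0421), in the 5 paired mice with and without mouse as a block, with code form as covariate, with protein-coding genes only, with copies added and with DESeq2. The log2 fold changes in these ran from 0.71 with DESeq2 to 1.29 with the block. Per kb, on exon bases of 816 for Rps27l and 1043 for Rps27, Rps27l exceeded Rps27 in every sample, at 53.9% to 89.5% of the pair. The single transcripts compared have 575 and 458 bases, so this depends on the length used. With the copies of Rps27 added, the share of Rps27l in raw counts was 6.31% to 17.4%.

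Rpl7l1, a protein of large subunit assembly rather than of the finished ribosome, ran from 9.19 to 24.8 normalized counts in epithelium and from 10.7 to 14.2 in stroma. Its log2 fold change was 0.54 (SE 0.20, edgeR adjusted p = 0.0296), and the call was lost without O1, O2, O3, Y1 or Y3 in turn, with adjusted p from 0.0537 to 0.154, and with at least 10 counts in each library (edgeR adjusted p = 0.265). Rpl7 had a log2 fold change of 0.97 (SE 0.20). Rpl10l and Rpl39l, paralogs known from the testis, had at most 6 and 5 counts in any library, and neither passed the filter. Rpl39, the parent of the latter, ran from 6.23 to 12.7 normalized counts in epithelium and from 1.15 to 4.59 in stroma, a log2 fold change of 1.65 (SE 0.28). Rps12l1 matched Rps12 at each of its 399 bases and had 0 counts in all 14 libraries. Rps12 had a log2 fold change of 1.44 (SE 0.37, edgeR adjusted p = 0.002495), and with mouse as a block it was 1.17 (edgeR adjusted p = 0.0870). Rpl32l, Rpl6l, Rps3a2 and Rps3a3 were 96.0% to 99.5% identical to their parents and were DEGs in the direction of the parent. Reads of these near-identical genes can be divided between the rows by the counting, so their values are uncertain.

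Levels per length varied widely between the core genes, most of whose proteins are present in equal numbers in the ribosome. Per kb of exon, the mean over the 9 epithelial samples ran over the 77 core genes from 0.687 to 314 normalized counts, with a median of 9.54. The highest were Rplp1 (314 ± 64.8, SD), Rpl4, a large subunit protein of the exit tunnel (214 ± 64.8), Rpl8, near the peptidyl transferase centre (169 ± 42.2), Rplp0 (164 ± 37.7) and Rps15, of the small subunit head (137 ± 32.8), all per kb with n = 9. The neighbours in this order overlap within 1 SD. At the other end of all members stood Rps12l1 at 0, Rpl10l at 0.0172, Rpl39l at 0.0894, Rpl3l at 0.523 and Rps13, a core small subunit protein, at 0.687 per kb. The order and spread depend in part on the length used, which joins all annotated transcripts. For Rps13 it is 2691 bases against 1317 in its longest protein-coding transcript, and for Rplp1 it is 499 in both.

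Most ribosomal protein genes have processed copies in the genome that took counts of their own. Of the annotated genes, 595 pseudogenes or single-exon genes shared at least 25% of their 31-base words with a member's transcript, and 81 of the 89 members had at least 1 such copy. The members held 33.8% of the counts of members and copies together, and from 32.5% to 35.9% in each of the 14 libraries. Where the member held under 10% of the counts of its family (28 core genes), the median level was 3.62 normalized counts per kb in epithelium. It was 20.98 where the share was 10% to 50% (35 genes) and 86.8 where it was 50% or more (14 genes). The counts of the member enter both the level and the share, so the order of these medians is in part fixed by how they were made. Rps10 held 1.78% of its family, next to Rps10-ps2 with 16589 counts over all libraries against 359 for Rps10. Rps3 had no such copy.

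The size of the layer difference was related to the copies too. The median log2 fold change between the layers was 1.14, 1.01 and 0.75 in these 3 classes of core genes, and rho with the share was -0.51. With the counts of the copies added to each member, an alternative chosen after seeing the data, the medians were 0.91, 0.95 and 0.79 and rho was -0.00. The SD of the log2 fold change among core genes then fell from 0.44 to 0.30. In that fit 69 of the 77 core genes and 76 of 86 members tested were DEGs higher in epithelium, against 26% of 16393 genes. Of the 595 copies themselves, 398 were tested between the layers, of which 248 were DEGs higher in epithelium and 1 lower, with a median of 1.06. Of the 319 symbols named as ribosomal protein pseudogenes, 157 were tested and 109 were higher and 0 lower, with a median of 1.07. How the authors' counting treated reads matching several genes is not given in the sources used here, and its part in these values was not tested.

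**Figure D5:**
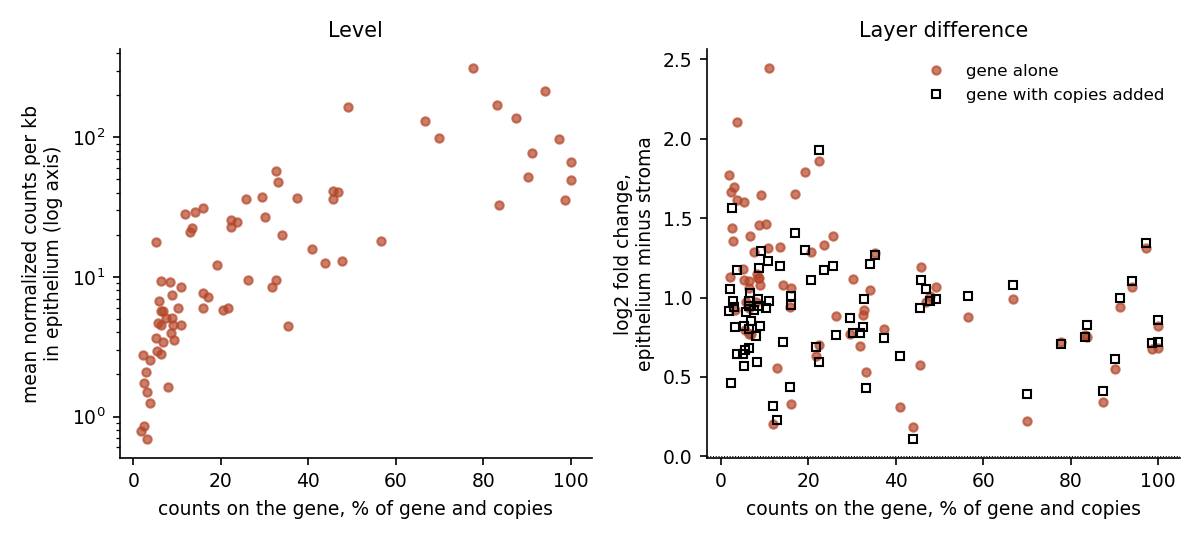
Left, mean level in epithelium (normalized counts per kb of exon, log axis), and right, log2 fold change between epithelium and stroma, of the 77 core genes against the percentage of the counts of a gene and its copies that lie on the gene. Genes with under 10% on the gene have a median level of 3.62 and those with 50% or more 86.8 per kb, and with copies added (open squares) the fold changes of the low-share genes come down to a median of 0.91.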

How the data were processed

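For each of the 14 samples, the authors deposited whole-number counts per gene symbol, not normalized, made by alignment to GRCm38.p6 with Rsubread and counting with featureCounts. The annotation release and the settings for strand and multi-mapping reads are not given in the sources used here. The members and lists were chosen with earlier results of these data known.

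Tests used edgeR 4.0.16 under R 4.3.3 (TMM, filterByExpr with a minimum count of 10, glmQLFit with robust estimation, Benjamini-Hochberg adjustment over all genes tested, threshold 0.05). Layers were compared over 14 samples without a covariate and ages within 9 epithelial samples with code form as covariate, within 5 stromal samples, and as an interaction over 10. The SE is the size of the log2 fold change divided by the root of F. Layers of 5 mice are paired by the shared code, and the interaction had no term for mouse. Deviations of same-mouse layers correlated at 0.04 to 0.14. Y1 and Y3, the only young mice with both layers, share the same value. The 5 values are therefore not separate and cannot settle how strong the pairing is. Total counts were 8217516 to 21867101. Replicate pairs differed beyond sampling noise (chi-square per degree of freedom at least 9.93 in 20 pairs).

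Gene lengths are exon bases of GENCODE M21, joined over all annotated transcripts of a gene. Named genes were the paralogs and parents, Rpl10, Rps3, Rplp0, Rplp1, Rplp2 and Rpsa, up to 5 members called per direction (or the 3 smallest p), and the 5 highest and lowest per kb. DESeq2 1.42.0, upper quartile scaling, other filters, covariates and subsets, and each mouse left out were alternatives. The procedure was tested on simulated counts.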

Additional observations from a re-analysis of the deposited data

Results flagged for a closer look

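Among 62 checks of the spread within aged or young epithelium, 5 values stood far from the rest of their group, and chance alone gives about 1 in 20. Rpl3l in aged epithelium was highest in O3, at 2.53 normalized counts. Rps10 in aged epithelium was highest in OM8, at 4.01. Rps27l in aged epithelium was lowest in O1, at 5.61. In young epithelium, Rpl22 and Rpl39 were lowest in YM4, at 75.5 and 6.23 normalized counts. O3 also had the highest skeletal muscle sum of the aged epithelial samples, 1145 normalized counts, and OM8 and YM4 are shallow libraries. The part of these in the values was not tested.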

How the results depend on the processing

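The number of members called higher in epithelium was 53 to 79 under every alternative, and 1 member was called lower, except 0 under the strict filter (10 counts or more in each sample), where Rpl3l was not tested. All genes tested ran from 6711 under the strict filter to 49574 with no filter. The share of all genes called in each alternative is not given here, so these counts alone cannot be compared between alternatives. The median of the members minus that of all genes, 1.08 as reported, was 1.5 with mouse as replicate block, 1.33 with the code form as covariate, 1.24 without the block in the 5 paired mice, 0.97 with copies added, 1.77 with no filter, 1.21 with protein-coding genes only and 0.68 under the strict filter. It was 1.03 to 1.16 when single mice were left out. Upper quartile scaling moved the median of all genes from -0.05 to -0.15, and the members' median was 0.93. The ratio of median shares was 1.78 with all counts, where the 4 shallow libraries lay below all stromal samples, and 1.41 without mitochondrial and muscle genes in the denominator. By age in epithelium, 0 members were called lower with lettered codes only, with no covariate and under the strict filter, and 0 to 1 when single mice were left out. Rpl27a reversed with copies added, to 0.14 by age in stroma and -0.052 in the interaction. The replicate block changed no call of a named member other than those given for Rpl22l1, Rps12, Rps27 and Rps4l. Rplp2 was not called under the strict filter (0.35). The cause of these changes was not tested. Depth limits the 4 shallow libraries most.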

Other observations

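Markers of other cells of the esophageal wall are given beside the 30.1% of all genes called lower in epithelium. Of 6 fibroblast genes, 3 were DEGs lower in epithelium and 3 were not called, with sums of 280 to 632 normalized counts in epithelium and 415 to 1031 in stroma. Of 5 smooth muscle genes, 2 were lower, with sums of 333 to 835 and 303 to 2051. Of 4 endothelial genes, 3 were lower, with sums of 9.35 to 18.2 and 22.6 to 77.4. Of 5 immune genes, 3 were tested and 2 were lower, with sums of 3.81 to 18.6 and 6.07 to 65.1. None of the genes of these lists was called by age in either layer by edgeR.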
